A study of Bos taurus with 16 samples.

Results

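Enzyme genes were followed across cumulus and granulosa cells of cattle (Bos taurus). They are LOC786474 (PNPLA3), LYG1, FAM46A (TENT5A), NAT16, LOC527796 (RSKR) and ADSSL1 (ADSS1), which makes 6 of the 36824 gene entries of the count table. The genes were chosen by their large differences between cumulus and granulosa libraries, so those differences are given here as a description, without a test. Gene names follow the deposited table, and current symbols stand in parentheses.

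Cumulus cells envelop the oocyte within the ovarian follicle, and granulosa cells line its wall. Both were recovered from follicles of the ovary with the corpus luteum (ipsilateral) or of the other ovary (contralateral), after ovum pick-up. Each cell type was sampled on both sides, which gives 4 groups with 4 libraries each. Per the design text, a library was made from a pool of 3 animals; no breed, age or drug treatment is given in the labels used here.

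The 16 libraries held 10.1 to 21.9 M counts. Levels are given in CPM, the common unit of counts relative to library depth, after scaling with TMM factors. Where a gene had no counts, up to 3 counts remain possible, or 0.135 to 0.316 CPM depending on the library (counting error only). Of 60 cell type marker symbols 4 could be followed by name, and none of them was a granulosa or cumulus marker, so the labelled cell types were not checked with defining markers. In such bulk libraries, fewer cells that express a gene and less of its RNA per cell cannot be told apart.

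The genes encode unrelated enzymes. PNPLA3 is a patatin-like lipid hydrolase of lipid droplets, and LYG1 belongs to the goose-type lysozymes, relatives of enzymes that cleave bacterial cell walls. TENT5A is a non-canonical poly(A) polymerase, which lengthens the adenosine tail of mRNAs, and NAT16 belongs to the N-acetyltransferases, which move an acetyl group from coenzyme A to an amino group. RSKR is related to the ribosomal S6 kinases of the AGC kinase family. ADSS1 is the muscle form of adenylosuccinate synthase, the enzyme that commits inosine monophosphate to the making of adenosine monophosphate, and ADSS2 (ADSS in the table) is its widely expressed isozyme.

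The lipid gene LOC786474 was found almost only in granulosa cells. Ipsilateral granulosa libraries 1 to 4 held it at 28.9, 20.4, 25.6 and 17.1 CPM, and contralateral granulosa libraries 1 to 4 at 29.3, 20.6, 18 and 18.4 CPM. Ipsilateral cumulus libraries 1 to 4 held 0.0845, 0.183, 0 and 0 CPM, and contralateral ones 0, 0.194, 0.130 and 2.83 CPM. Every granulosa library lay above every cumulus library, and 6 of the 8 cumulus libraries had at most 2 counts, within what a count of 0 allows. The 8 cumulus libraries together held 59 counts, 50 of them in contralateral library 4, against 2875 counts in granulosa libraries. The log2 fold change, cumulus minus granulosa, was -6.63 ± 0.71 (SE), and moved to -8.01 once contralateral cumulus library 4 was dropped and to -7.38 with limma-voom. It was -8.49 with ipsilateral libraries alone and -4.76 with contralateral libraries alone.

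LYG1 had the highest CPM of the 4 granulosa-high members, which says nothing of its amount per transcript length. It stood at 160, 97.5, 160 and 95.7 CPM in ipsilateral and at 154, 103, 115 and 77.2 CPM in contralateral granulosa libraries 1 to 4. Ipsilateral cumulus libraries 1 to 4 held 3.04, 4.03, 0.806 and 1.83 CPM, and contralateral ones 0.743, 1.70, 0.0648 and 0.622 CPM. Unlike LOC786474, LYG1 had counts in all cumulus libraries, and the lowest granulosa value lay far above the highest cumulus value. Cumulus minus granulosa, this is a log2 fold change of -6.43 ± 0.37 (SE), with a range from -6.79 to -6.26 over fits that each omit a library. It was -5.78 with ipsilateral and -7.06 with contralateral libraries alone.

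The poly(A) polymerase gene FAM46A stood at 73.7, 25.7, 72.1 and 36.5 CPM in ipsilateral granulosa libraries 1 to 4, and at 50.3, 39.8, 41.6 and 32.7 CPM in contralateral ones. The cumulus libraries held 1.69, 0.550, 0.538 and 0.0609 CPM on the ipsilateral side and 2.02, 1.31, 0.712 and 0.622 CPM on the contralateral side. Cumulus and granulosa values did not overlap, and the ipsilateral granulosa libraries fell into a higher and a lower pair. On the log2 scale the cell types differed by -5.68 ± 0.40 (SE), with -6.27 in ipsilateral and -5.09 in contralateral libraries alone.

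NAT16 was the most even of the members within granulosa cells. It stood at 11, 10.1, 11.9 and 12.3 CPM in ipsilateral and at 14.7, 12.6, 12.1 and 11.5 CPM in contralateral granulosa libraries 1 to 4. Its coefficient of variation (SD as a share of the mean) over the 8 granulosa libraries was 11%, against 22.2% for LOC786474, 27.4% for LYG1 and 38.1% for FAM46A. Its cumulus levels were 0.0845, 1.28, 0.202 and 0 CPM on the ipsilateral and 0, 0.632, 1.17 and 0.509 CPM on the contralateral side. These are 58 counts in all, so levels of single cumulus libraries carry large counting errors. The fitted log2 difference was -4.71 ± 0.58 (SE), and -5.64 without ipsilateral cumulus library 2, in which it was highest.

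The kinase gene LOC527796 went the other way. Ipsilateral cumulus libraries 1 to 4 held 62.7, 79.7, 84.1 and 123 CPM, and contralateral ones 74.5, 116, 47.4 and 53.5 CPM. Granulosa libraries 1 to 4 held 2.52, 5.50, 3.65 and 6.92 CPM on the ipsilateral side and 1.69, 2.27, 1.28 and 20.2 CPM on the contralateral side. All cumulus values were higher than all granulosa values, and contralateral granulosa library 4 stood well above the other granulosa libraries. Its log2 fold change was 3.86 ± 0.53 (SE), and 4.80 without that library.

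ADSSL1 differed least of the members between the cell types, a 6.09-fold difference. Ipsilateral cumulus libraries 1 to 4 held 24.7, 25.6, 24.3 and 23.2 CPM, and contralateral ones 22.4, 20.2, 33.6 and 27.5 CPM. The granulosa libraries held 0.453, 6.42, 2.30 and 9.21 CPM on the ipsilateral side and 2.74, 1.96, 4.69 and 5.17 CPM on the contralateral side. The ipsilateral cumulus libraries were nearly level, and the ipsilateral granulosa libraries spread 20.3-fold from the lowest to the highest. In log2 terms the difference was 2.61 ± 0.39 (SE), and between 2.39 and 2.91 in all 25 alternatives run.

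**Figure D1:**
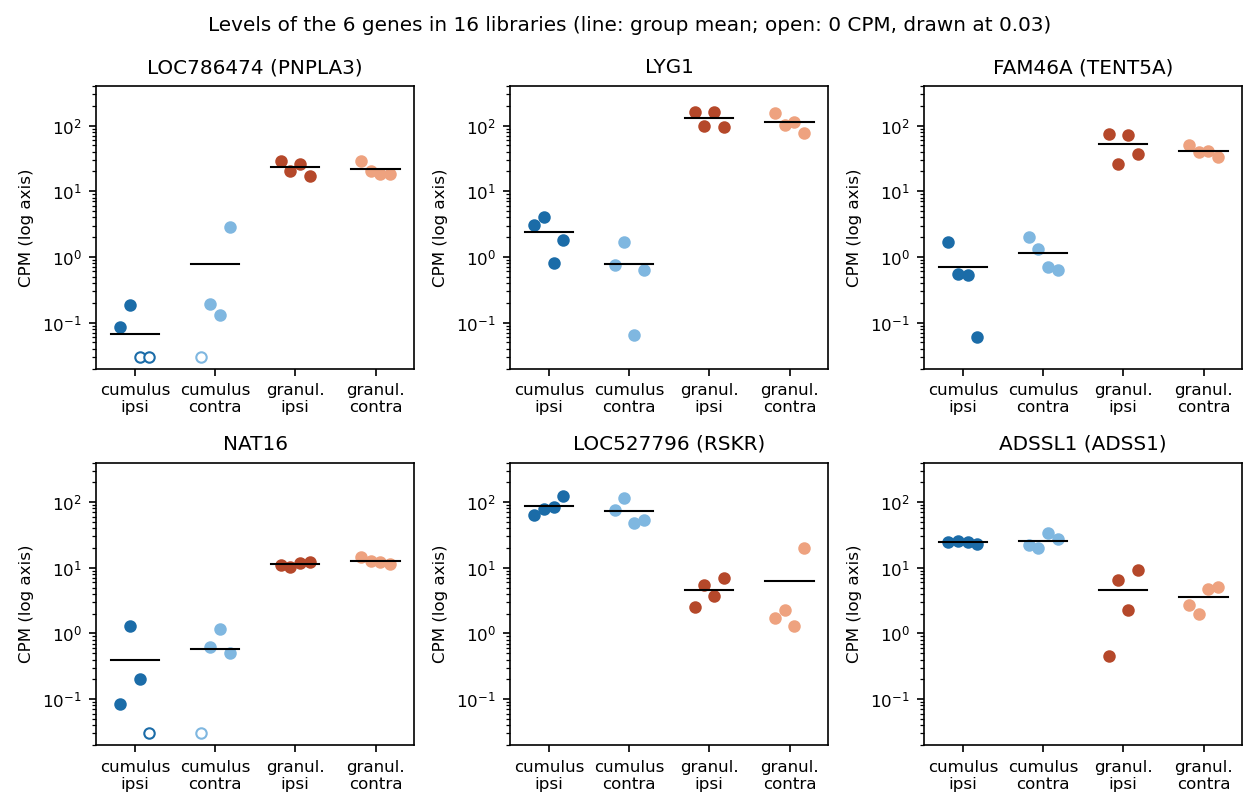
CPM on a log axis of the 6 genes in each of the 16 libraries (points, libraries 1 to 4 from left to right in each group; lines, group means; open points, 0 CPM). In each panel the cumulus and granulosa points do not overlap, while the 2 sides within a cell type do. The genes were chosen for their cell type difference.

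Ordered by group mean, ipsilateral granulosa led for LOC786474 (23.0 ± 5.27 CPM, SD, n = 4), LYG1 (128 ± 36.8 CPM) and FAM46A (52.0 ± 24.5 CPM), followed by contralateral granulosa (21.6 ± 5.28, 112 ± 31.8 and 41.1 ± 7.25 CPM). NAT16 had 12.7 ± 1.37 CPM in contralateral and 11.3 ± 0.967 CPM in ipsilateral granulosa cells. For LOC527796 ipsilateral cumulus (87.4 ± 25.6 CPM) came before contralateral cumulus (72.8 ± 30.9 CPM), and for ADSSL1 contralateral cumulus (25.9 ± 5.95 CPM) before ipsilateral cumulus (24.5 ± 0.966 CPM). In these orders, neighbours from the same cell type overlapped for each gene, and neighbours from different cell types did not. The members were picked for large differences between the cell types, so this separation is a description only. The share of all entries without such overlap is not given here. Over all entries, 60.2% of 18038 tested were called different between the cell types (adjusted p under 0.05, edgeR), 29.9% with more in cumulus and 30.3% with more in granulosa cells. By size of the log2 fold change, LOC786474 ranked 133, LYG1 154, FAM46A 254 and NAT16 411 from the granulosa end. LOC527796 ranked 156 and ADSSL1 683 from the cumulus end.

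Libraries differed in transcripts of the other cell type. The 100 entries with the largest fold change towards cumulus cells, picked from these libraries without the members, summed to between 17.7 and 389 CPM in granulosa libraries and between 2620 and 5450 CPM in cumulus libraries. In ipsilateral granulosa libraries 1 and 3, with sums of 17.9 and 17.7 CPM, ADSSL1 stood at 0.453 and 2.30 CPM, and in libraries 2 and 4, with 162 and 279 CPM, at 6.42 and 9.21 CPM. Contralateral granulosa libraries 1 to 4 had sums of 57.9, 190, 389 and 146 CPM and held ADSSL1 at 2.74, 1.96, 4.69 and 5.17 CPM, so the order of the sums was not that of ADSSL1 there. Over the 8 granulosa libraries ADSSL1 and the sum had r = 0.75 and rho = 0.52, and LOC527796 and the sum r = 0.12 and rho = -0.14. Contralateral granulosa library 4, where LOC527796 reached 20.2 CPM, had a sum of 146 CPM, within the range of the others. The 100 entries with the largest fold towards granulosa cells summed to between 5.90 and 200 CPM in cumulus libraries, lowest in ipsilateral library 4 and highest in contralateral library 4. In the same order these libraries held LOC786474 at 0 and 2.83 CPM, NAT16 at 0 and 0.509 CPM, LYG1 at 1.83 and 0.622 CPM and FAM46A at 0.0609 and 0.622 CPM. Over the 8 cumulus libraries this sum had r = 0.80 and rho = 0.95 with LOC786474, and r = 0.80 and rho = 0.80 with NAT16. With LYG1 it had r = 0.08 and with FAM46A r = 0.17. Outside contralateral library 4 LOC786474 had at most 4 counts in a cumulus library, so its r and rho rest on few counts. Ipsilateral cumulus library 2, with a sum of 184 CPM, held LOC786474 at only 0.183 CPM and NAT16 at 1.28 CPM. PF4 (platelet factor 4), the only 1 of 8 symbols listed as leukocyte markers that could be followed, stood at 0.448 to 3.90 CPM in granulosa and 0 to 0.243 CPM in cumulus libraries. PF4 alone does not define leukocytes. MUC16, from a list of 4 surface epithelium markers, ranged from 0 to 44.2 CPM in granulosa and from 0 to 2.09 CPM in cumulus libraries. The part of such RNA in the members' levels was not tested.

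LOC786474 and a separate entry named PNPLA3 carry the same current symbol. In granulosa cells the PNPLA3 entry had 9.66 ± 1.02 CPM and in cumulus cells 0.851 ± 1.05 CPM (SD, n = 8 each), a 14.3-fold difference (edgeR, adjusted p = 4.2e-07). The PNPLA3 entry passed the filter on low counts only through granulosa cells, so this call rests on few cumulus counts, 115 in all. As LOC786474, of the same symbol, was picked for this contrast, the call is no independent check of it. Its log2 fold change of -3.84 was -4.83 with ipsilateral and -2.85 with contralateral libraries alone. It is not a copy of LOC786474, since the entries held 1287 and 2875 counts in granulosa libraries, and their log2 levels over these 8 libraries had a Pearson r of 0.24. Which gene model each entry had is not given in the sources used here, so the level of the PNPLA3 gene as a whole is uncertain. PNPLA5, the next gene of the patatin family in the reference (RefSeq genes of ARS-UCD2.0), had no counts in any library.

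Contralateral cumulus library 4 held both PNPLA3 entries at their highest cumulus levels, 2.83 CPM for LOC786474 and 3.33 CPM for PNPLA3. The same library held the oocyte transcripts BCL2L10, an apoptosis regulator, at 111 CPM and H1FOO (H1-8), the oocyte linker histone, at 92.2 CPM. Contralateral library 2 had 9.63 and 8.95 CPM of them, and the other 6 cumulus libraries at most 1.28 and 0.583 CPM. FAM46B (TENT5B), a relative of FAM46A, had 22.8 CPM in library 4, 1.85 CPM in library 2 and at most 0.907 CPM in the other 6. FAM46A itself was not raised there, with 0.622 CPM in library 4, and neither was LYG1. Among granulosa libraries BCL2L10 was highest in contralateral library 3 (5.53 CPM), where LOC786474 had 18 CPM, within the granulosa range. Contralateral cumulus library 4 also had the highest sum of granulosa-high entries among cumulus libraries, 200 CPM. The part of oocyte or granulosa cell RNA in the LOC786474 counts was not tested.

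**Figure D2:**
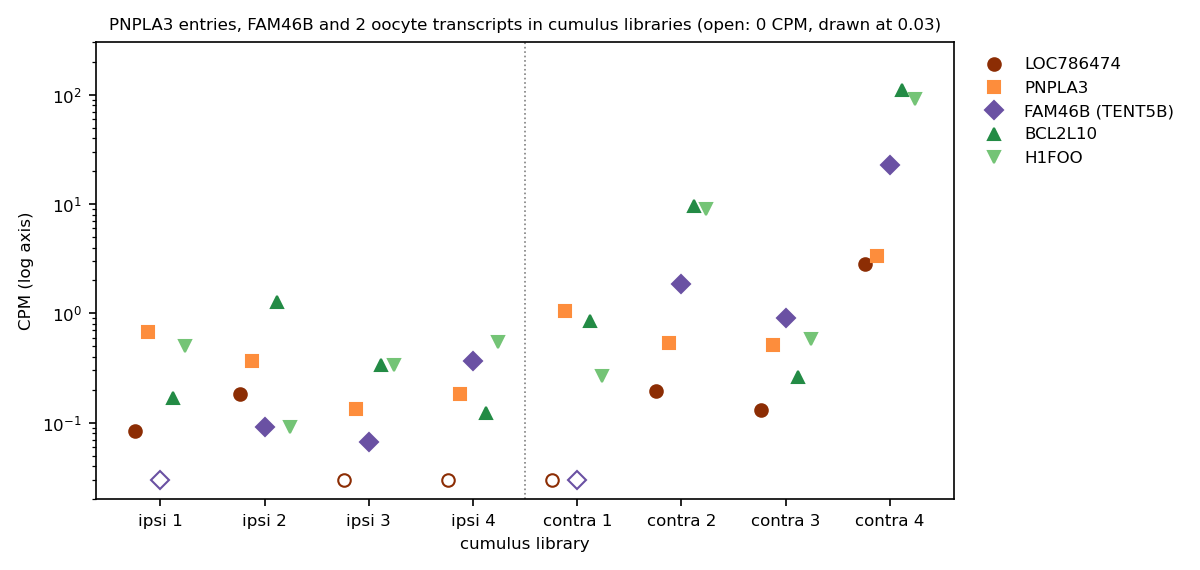
CPM on a log axis of LOC786474, PNPLA3, FAM46B and the oocyte transcripts BCL2L10 and H1FOO in each of the 8 cumulus libraries (open symbols, 0 CPM). All 5 peak in contralateral library 4, where LOC786474 has 2.83 CPM and BCL2L10 111 CPM.

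For 3 other members the table holds a further, unnamed Ensembl entry with the same pattern. ENSBTAG00000000995 has the same counts as FAM46A in all 16 libraries, 6201 in all. ENSBTAG00000017616 held between 78.9% and 100% of the ADSSL1 counts of each library, and ENSBTAG00000011984 between 59.3% and 76.9% of those of LOC527796. Reads of these genes may therefore have been counted under more than 1 entry, and the levels above are those of the named entries. None of the 6 genes overlaps another gene in the reference.

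The study's title concerns nearness to the corpus luteum, and the comparison of sides addresses it. The side was not used to choose the members. In cumulus cells 4 of the 6 passed the filter on low counts, which left out LOC786474 and NAT16, and none of the 4 was called. Over all entries 0 of 16323, which is 0%, were called by edgeR's quasi-likelihood test, 1791 had an unadjusted p under 0.05, and DESeq2 called 120.

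Among the 4 members tested in cumulus cells, LYG1 had the largest log2 fold change between sides, at 2.43 ± 1.41 CPM on the ipsilateral against 0.783 ± 0.680 CPM on the contralateral side (SD, n = 4 each). The log2 fold change, ipsilateral minus contralateral, was 1.57 ± 0.70 (SE), with a 95% interval from 0.04 to 3.10. It did not pass by edgeR (unadjusted p = 0.0448, adjusted p = 0.452) or by DESeq2 (adjusted p = 0.344), and the 2 sides overlapped. Without contralateral library 2 it was 2.29. FAM46A had -0.76 ± 0.72, with an interval from -2.33 to 0.81, and -1.65 without ipsilateral library 1. The cumulus-high members were better measured: LOC527796 had 0.26 ± 0.30 (interval -0.43 to 0.94) and ADSSL1 -0.09 ± 0.16 (interval -0.44 to 0.26). For ADSSL1 the data thus allow changes from 0.738-fold to 1.20-fold. Without the filter, LOC786474 had -3.55 ± 1.52 (adjusted p = 0.545) and NAT16 -0.59 ± 1.19 (adjusted p = 0.88).

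In granulosa cells all 6 members were tested and none was called, nor was any of the 16411 entries (0%) by edgeR, with 579 at an unadjusted p under 0.05 and 1 call by DESeq2. NAT16, at 11.3 against 12.7 CPM, had a log2 fold change of -0.16 ± 0.19 (SE), and its interval allows ratios from 0.671 to 1.19. LOC786474 had 0.10 ± 0.23 (ratios from 0.754 to 1.52), LYG1 0.20 ± 0.25 (0.781 to 1.69) and FAM46A 0.35 ± 0.33 (0.768 to 2.10). The genes at low granulosa levels were measured less well, with ratios from 0.414 to 3.79 for ADSSL1 and from 0.198 to 2.71 for LOC527796. The log2 fold change of LOC527796 was -0.45 ± 0.84, and 1.41 without contralateral granulosa library 4, the library in which it was highest. No member had an unadjusted p under 0.05.

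**Figure D3:**
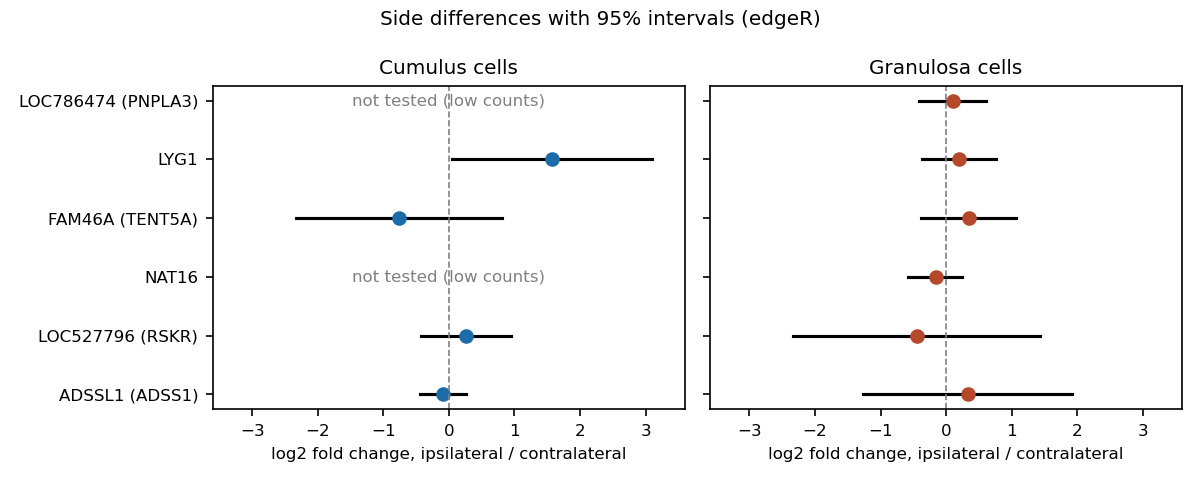
Log2 fold changes, ipsilateral over contralateral, with 95% intervals from edgeR for 4 genes in cumulus cells (left, where LOC786474 and NAT16 were not tested because of low counts) and 6 in granulosa cells (right). The narrowest interval belongs to ADSSL1 in cumulus cells (-0.44 to 0.26), and LYG1 in cumulus cells has the largest estimate drawn (1.57).

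The difference of the side effects, cumulus minus granulosa, was fitted on all 16 libraries, and none of the 6 members passed. LOC786474 and NAT16 passed its filter on low counts only through granulosa cells, so their values rest on few cumulus counts. For LOC786474 these are 3 ipsilateral against 56 contralateral counts, 50 of them in library 4. It had -3.72 ± 1.53 (SE, edgeR, unadjusted p = 0.028, adjusted p = 0.659), and -0.96 without contralateral cumulus library 4. Among cumulus libraries, that library was highest both in the 2 oocyte transcripts and in the sum of granulosa-high entries. LYG1 had 1.31 ± 0.69 (adjusted p = 0.689), FAM46A with -1.15 ± 0.76, LOC527796 with 0.72 ± 0.97, NAT16 with -0.48 ± 1.08 and ADSSL1 with -0.43 ± 0.75. Of 18038 entries 0, or 0%, were called by edgeR, 1358 had an unadjusted p under 0.05, and DESeq2 called 1.

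Among the 8 granulosa libraries, LOC786474, LYG1 and FAM46A were high and low together. LYG1 and FAM46A had a Pearson r of 0.88 and a Spearman rho of 0.93 (log2 CPM, n = 8), and r was 0.74 without the 2 libraries farthest from the LYG1 median. LOC786474 and LYG1 had 0.87 and 0.74, and r = 0.76 without the 2 libraries farthest from the LOC786474 median. The weakest of these pairs, LOC786474 and FAM46A, had 0.74 and 0.64, and r = 0.65 without the same libraries. In ipsilateral libraries 1 and 3 LYG1 and FAM46A lay 0.46 to 0.75 above their geometric means on the log2 scale. The sum of the 100 granulosa-high entries, picked without the members, was also highest there, at 15500 and 13800 CPM. It was lowest in ipsilateral library 2 (7620 CPM), but had 12000 CPM in contralateral library 4, where LYG1 was lowest. Whether the members vary together more than other granulosa-high entries do was not tested. For NAT16 and LYG1 the values were r = 0.29 and rho = 0.02, and r = 0.72 without the 2 libraries farthest from the LYG1 median, so this relation depends on them. NAT16 and FAM46A had r = 0.25 and rho = 0.19, and r = 0.96 without the 2 libraries farthest from the FAM46A median. NAT16 and LOC786474 had r = 0.25 and rho = 0.10, and r = -0.11 without the 2 farthest from the LOC786474 median. ADSSL1 had r = -0.77 with LOC786474, -0.69 with LYG1 and -0.78 with FAM46A (-0.72, -0.48 and -0.56 without 2 libraries), and -0.01 with NAT16 (0.56 without 2 libraries). LOC527796 had r = -0.68 with LYG1, -0.45 with FAM46A, -0.43 with LOC786474 and -0.41 with NAT16 (-0.84, -0.64, -0.19 and -0.22 without 2 libraries). In these pairs and those of ADSSL1, the 2 libraries are those farthest from the median of the other gene, so they vary between pairs. Contralateral library 4, where LOC527796 was highest, was kept in each of its pairs, and r without that library is not given here. The sum of the cumulus-high entries also ran against LOC786474 (r = -0.87), LYG1 (-0.78) and FAM46A (-0.82), while r with NAT16 was 0.03. In cumulus cells LOC527796 and ADSSL1, the cumulus-high members, ran opposite to each other (r = -0.82 and rho = -0.76). There r was -0.85 without the 2 libraries farthest from the LOC527796 median. These are descriptions from 15 pairs in each cell type, over libraries that share their scaling.

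**Figure D4:**
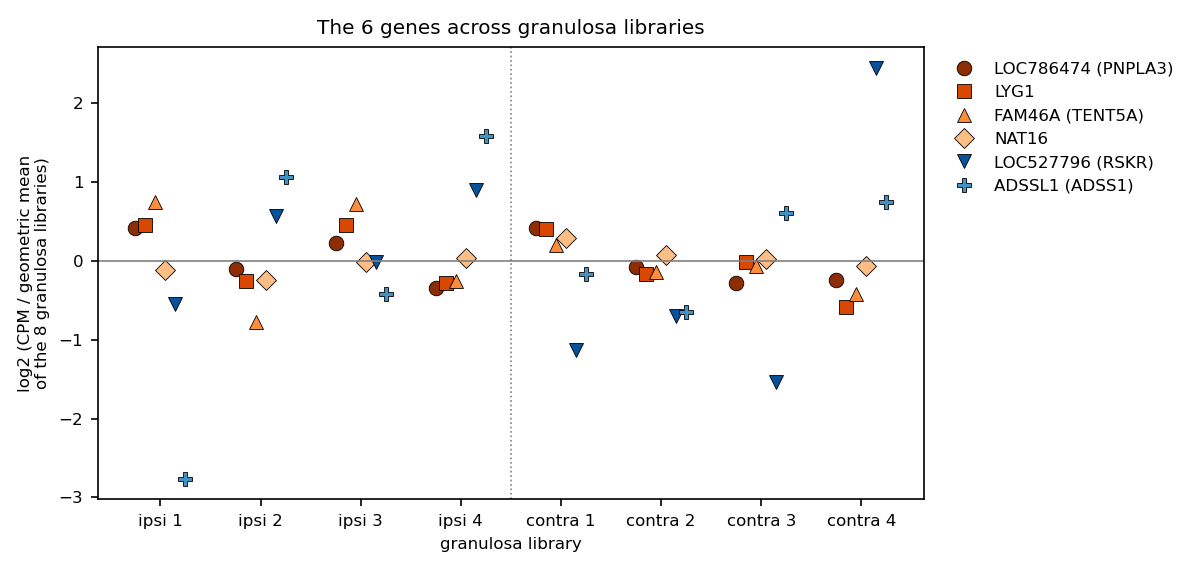
Log2 of the CPM of each gene relative to its geometric mean over the 8 granulosa libraries. NAT16 stays between -0.24 and 0.29, ADSSL1 falls to -2.76 in ipsilateral library 1, and LOC527796 rises to 2.45 in contralateral library 4.

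Other named entries most like each member were looked up among 806 or 807 candidates, by Pearson r over the 8 libraries of the cell type in which the member is higher. For LOC786474 these were the threonyl-tRNA synthetase gene TARS (TARS1, r = 0.93) and the proton pump gene ATP6V0C (0.84). LYG1 was closest to C29H11orf80 (0.97) and GPX6, of the glutathione peroxidases (0.90), and FAM46A to TMEM173 (STING1, 0.94), a sensor of cytosolic nucleic acid signals, and MPP5 (PALS1, 0.90), a cell polarity gene. For NAT16 they were SENP8 (0.91) and the channel gene TRPM6 (0.87), for LOC527796 ZNF175 (0.92) and BORCS7 (0.90), and for ADSSL1 KAZN (0.97) and SNRNP70 (0.87). TRPM6 had a mean of only 0.312 CPM in granulosa libraries, near what a count of 0 allows, so its r rests on few counts. Over all 16 libraries, where the cell type difference dominates, FAM46A was closest to ADSS and TIMP1 (0.98 each), LYG1 to PQLC3 (SLC66A3) and SEPT6 (SEPTIN6, 0.97 each), and NAT16 to A2M and GPR142 (0.97 each). LOC786474 was closest to ZNF804A and SYN3 (0.96 each), LOC527796 to IQCN (0.94), and ADSSL1 to HYDIN and C11H2orf40 (ECRG4, 0.97 each). These values of r are the highest among many candidates over few libraries, and they carry no test.

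Related enzymes from 6 lists of 199 symbols could be followed only in part, since most entries carry an Ensembl ID that the reference does not name. Besides the members 16 entries were found and 13 were tested between the cell types, of which 8 were called, 4 towards each cell type. This share is close to the 60.2% of all entries, and their median log2 fold change was -0.20 against 0.03 over all entries. The PNPLA3 entry, which has the current symbol of the member LOC786474, is among the 4 calls towards granulosa cells, as is LYG2. PNPLA3, LYG2 and FAM46B passed the filter on low counts only through granulosa cells. The lists were drawn up with earlier results of these data known. None of the 13 was called between sides in granulosa cells, nor any of the 10 tested in cumulus cells.

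The isozymes of adenylosuccinate synthase lay on opposite sides. ADSSL1 was picked for its cell type difference, so only ADSS was tested, and values that use ADSSL1 are a description. Of all entries tested, 30.3% were called towards granulosa cells, as ADSS was. Granulosa libraries held ADSS at 243 ± 39.4 CPM and cumulus libraries at 84.4 ± 10.5 CPM (SD, n = 8 each). Its log2 difference was -1.53 ± 0.10 (SE; edgeR, adjusted p = 3.86e-09), where ADSSL1 had 2.61. ADSSL1 had between 21.7% and 36.2% of the counts of ADSS in cumulus libraries and between 0.153% and 3.99% in granulosa libraries. The only other purine gene found, the adenylate kinase gene AK9, was not called (-0.01 ± 0.39). LYG2, the second goose-type lysozyme and the neighbour of LYG1 in the reference, was higher in granulosa cells like LYG1, at 3.23 ± 1.65 against 0.438 ± 0.356 CPM (log2 fold change -2.89 ± 0.57, edgeR, adjusted p = 3.7e-04). LYG2 passed the filter on low counts only through granulosa cells, so this call rests on few cumulus counts, 55 in all. Its groups overlapped, since contralateral granulosa library 2 (0.846 CPM) lay below ipsilateral cumulus library 4 (1.03 CPM).

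**Figure D5:**
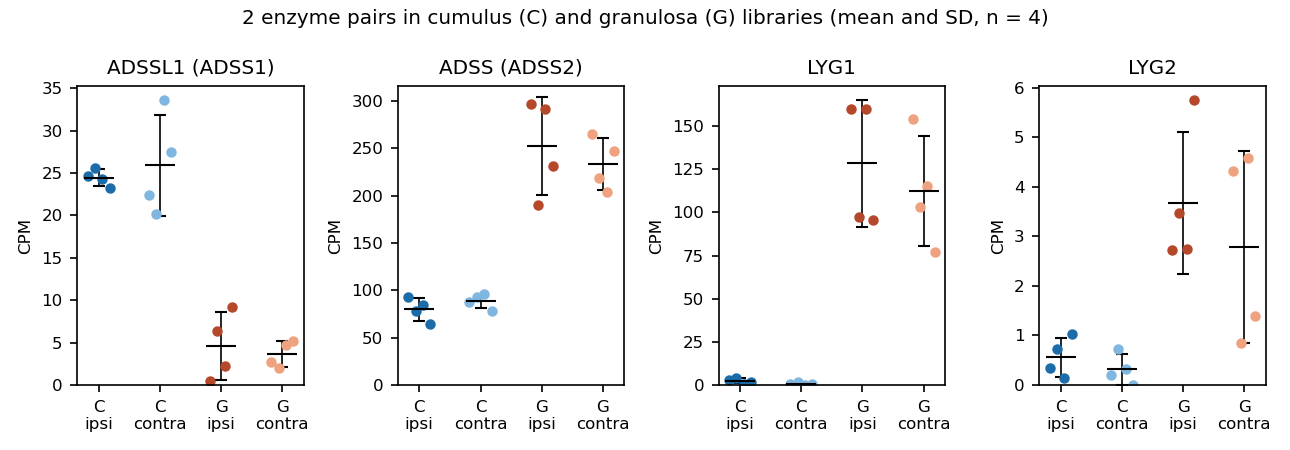
CPM of the isozyme genes ADSSL1 and ADSS and of the lysozyme genes LYG1 and LYG2 in cumulus (C) and granulosa (G) libraries of the ipsilateral and contralateral side (points, libraries; bars, mean and SD, n = 4). ADSSL1 is higher in cumulus and ADSS in granulosa cells, while both lysozyme genes are higher in granulosa cells. ADSSL1 and LYG1 were chosen for their cell type difference.

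Of 6 tested relatives of FAM46A, 3 were called between the cell types, against 60.2% of all entries. The tail-adding polymerase gene PAPD7 (TENT4A, 11.8 ± 1.35 against 6.65 ± 2.73 CPM, 0.83 ± 0.25 SE) and the terminal uridylyltransferase gene ZCCHC11 (TUT4, 0.36 ± 0.09) were higher in cumulus cells. Its paralog ZCCHC6 (TUT7) was higher in granulosa cells (62.2 ± 5.07 against 91.2 ± 7.27 CPM, -0.55 ± 0.07). PAPD7 was not called with ipsilateral libraries alone (adjusted p = 0.108). FAM46B was not called (-1.10 ± 0.90), and passed the filter on low counts only through granulosa cells. Contralateral cumulus library 4 held 404 of its 464 cumulus counts. Its log2 fold change was -2.5 without that library and 1.84 with contralateral libraries alone, so its direction is uncertain. PAPD4 (TENT2, -0.20 ± 0.08) and PAPD5 (TENT4B, 0.35 ± 0.23) were not called. PAPD4, with an adjusted p of 0.0541, lay at the threshold and passed by DESeq2 (0.035) and limma-voom (0.0495).

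Of the lipid droplet genes, HILPDA, an inhibitor of triglyceride breakdown, was higher in cumulus cells (5.20 ± 1.20 against 2.52 ± 0.921 CPM, 1.05 ± 0.25 SE, edgeR adjusted p = 0.00167). G0S2, another lipase inhibitor gene, was not called (-1.22 ± 0.52, adjusted p = 0.0563). G0S2 passed by DESeq2 (adjusted p = 0.0215), without contralateral cumulus library 3 (-1.81, edgeR adjusted p = 0.00303) and with ipsilateral libraries alone (-2.77, 0.00668), and had 0.34 with contralateral libraries alone. Over fits that each omit a library it ran from -1.81 to -0.81. NAA80, the actin N-acetyltransferase gene, was higher in cumulus cells, opposite to NAT16, at 8.22 ± 1.55 against 5.55 ± 1.19 CPM (0.56 ± 0.17, adjusted p = 0.00957), and was not called within either side alone (adjusted p = 0.0744 and 0.112). No relative of LOC527796 among the AGC kinases could be followed.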

How the data were processed

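RNA was measured in 16 libraries, 4 per group. Per the labels' protocols, polyA RNA was amplified with SMART-Seq HT and Nextera XT, kits that keep no strand, and read as single ends. The authors deposited raw read counts per gene entry; per the submitters' processing notes FastQC, Trimmomatic, STAR and DESeq2 were used, while the sources used here give no build, annotation or counter. Columns were matched by sample title.

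Counts were tested with edgeR 4.0.16 (limma 3.58.1, DESeq2 1.42.0, R 4.3.3): filterByExpr (minimum count 10, total 15), TMM, robust dispersions, quasi-likelihood F-test, Benjamini-Hochberg over all entries tested, calls at an adjusted p under 0.05. Sides were fitted on the 8 libraries of a cell type, cell types and the difference of side effects on all 16. The SE is the fold change over the root of F. The scripts were tested on simulated data. Log2 CPM for correlations used a prior count of 2.

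Replicate pairs differed beyond sampling noise (chi-square per entry 12.0 to 72.3). The labels do not say whether pools share animals, so p-values measure the spread between pools. Of 36824 entries 2474 have a name. Members and lists were chosen with earlier results of these data known. Named genes are the members, the 2 likest named entries by r, found list genes and neighbours or repeats. For LOC527796 over 16 libraries, 1 of the 2 likest entries is not reported here. Alternatives were RLE scaling, DESeq2, limma-voom, no filter, no repeats, left-out libraries, single sides and a 16-library fit.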

Additional observations from a re-analysis of the deposited data

How the results depend on the processing

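Between the cell types each of the 6 members kept its direction in all 25 alternatives. The members were picked for this contrast in the same libraries, so the kept direction is no independent check. The number of entries called between sides in cumulus cells was 120 by DESeq2 and 30 without contralateral cumulus libraries 2 and 4, against 0, and DESeq2 called 1 entry between sides in granulosa cells and 1 for the difference of side effects. No member was called in any side alternative. With limma-voom the granulosa side difference was 0.47 for LOC527796 and -0.14 for ADSSL1, and the difference of side effects -0.17 and 0.10, each of the opposite sign. When each library was left out, the side difference of ADSSL1 ran from -0.19 to 0.06 in cumulus cells and from -0.25 to 0.70 in granulosa cells, where LOC786474 ran from -0.04 to 0.28 and LOC527796 from -0.80 to 1.41. The difference of side effects ran from -2.35 to 0.08 for NAT16, from -0.80 to 0.18 for ADSSL1 and from -1.15 to 1.07 for LOC527796. Among related genes, the cell type difference of AK9 was 0.22 by limma-voom, 0.84 with ipsilateral libraries alone, 0.44 when library 4 of contralateral cumulus and library 3 of contralateral granulosa cells were both omitted, and -0.15 to 0.45 with each library left out. With contralateral libraries alone G0S2 had 0.34 and FAM46B 1.84. The causes were not tested. Low counts limit LOC786474 and NAT16 in cumulus cells. No paired analysis was possible because the labels give no numbers shared between groups.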
